A study of Mus musculus with 14 samples.

Results

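The ureteric bud is the epithelial outgrowth of the nephric duct that invades the kidney mesenchyme, branches, and gives rise to the collecting duct system. Its messenger RNA profile was described here from the 6 control libraries of the series, out of 14 libraries in all: every gene was ranked by its abundance, and its spread over the 6 libraries was measured. No contrast chose these libraries. They were taken by their titles, which mark 3 libraries of a Cep120 line and 3 of a Pkd1 line as het, while the genotype label of all 6 reads WT. The labels do not say which allele is heterozygous. Per the series' design text and protocols, cells were sorted for GFP, which the Hoxb7-Cre transgene supplies together with Cre recombinase in the ureteric lineage, so the control libraries carry that transgene as well. Kidneys were collected at E13.5 (embryonic day) in the protocol, which names the Cep120 line and wild-type mice only. They were dispersed with trypsin, DNase and collagenase before sorting. The stage label of the Pkd1-line controls says only that they are embryonic. Whether the 3 controls of a line stem from different embryos or from shared pools is not stated, so every standard deviation (SD) below measures the spread between libraries, which may be partly technical.

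Branching of the bud is driven by a loop between 2 tissues. The metanephric mesenchyme secretes the growth factor GDNF, the bud tip binds it through the receptor tyrosine kinase RET and its co-receptor GFRA1, and the signal maintains tip transcription factors of the ETS family (Etv4, Etv5) and the ligand Wnt11, which acts back on the mesenchyme. Cells left behind by the advancing tips form the trunk, which later matures into collecting ducts with water channels and the epithelial sodium channel. Levels are given in TPM, a transcript abundance corrected for transcript length and library depth, over 21936 protein-coding genes. A gene's level is its mean TPM over the 6 libraries, with SD and n = 6 throughout, and its rank is the position of that mean, with 1 the most abundant.

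The 6 libraries held between 18200490 and 27475901 counts. Protein-coding genes took 85.8 to 87.2% of all TPM, and the mitochondrially encoded genes took 6.04 to 9.30% of the protein-coding part. Between 10050 and 10534 protein-coding genes reached 1 TPM in a library. Across genes, Pearson's r of log2(TPM + 1) was 0.980 to 0.992 between libraries of 1 line and 0.971 to 0.982 between libraries of different lines, and no pair of libraries was a duplicate. The lines stood apart for many genes: of 4960 genes with a mean of at least 10 TPM, 1583 (31.9%) had all 3 libraries of 1 line above all 3 of the other. The Pkd1 line was the higher for 1352 of them (27.3% of the genes compared) and the Cep120 line for 231 (4.66%). This split depended on the scaling: after rescaling by TMM factors, which assume that most genes do not differ, 797 genes were higher in the Pkd1 line and 565 in the Cep120 line, and the median log2 difference between the lines (Pkd1 minus Cep120) went from 0.15 to 0.06. Of 148 genes given values below, 53 were higher in the Pkd1 line as deposited and 33 of these stayed so after rescaling, while all 17 that were higher in the Cep120 line stayed so, and none changed direction. Line cannot be told apart from litter or preparation.

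Abundance was concentrated in few genes. Of the 21936 protein-coding genes, 10439 (47.6%) had a mean of at least 1 TPM, 4960 of at least 10 TPM, 1174 of at least 100 TPM and 171 of at least 1000 TPM. The last 171 genes held 50.7% of protein-coding TPM, whereas 4800 genes were at 0 in all 6 libraries. The 10 most abundant genes took 11.4% and the 100 most abundant took 40.8 ± 1.27% of protein-coding TPM, and 49 of those 100 encode cytoplasmic ribosomal proteins and 8 are encoded by the mitochondrial genome.

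The most abundant transcript was mt-Co3, a mitochondrially encoded subunit of cytochrome c oxidase, at 19059.5 ± 2761 TPM. It was followed by Actb, the cytoplasmic beta-actin gene, at 12612 ± 3388 TPM. Actb measured 7797, 10082 and 11594 TPM in Cep120-line controls 1, 2 and 3 and 16591, 13989 and 15620.4 TPM in Pkd1-line controls 1, 2 and 3, so the lines did not overlap. Rps14, a protein of the small ribosomal subunit, was the highest nuclear-encoded gene after Actb at 9152 ± 738 TPM. Among the 20 most abundant genes were also Ubb, which encodes a polyubiquitin chain (7396 ± 549.6 TPM), the translation elongation factor Eef1a1 (6257 ± 288 TPM), the chromatin protein prothymosin Ptma (6121 ± 285 TPM) and the replacement histone H2az1 (5829 ± 254 TPM). Some of these genes have many processed copies in the genome, so how reads were shared among copies could move their values. The genes that the series deletes in its other libraries were low in these controls: Cep120, which encodes a protein needed to build centrioles, had 4.65 ± 1.11 TPM (rank 6858), and Pkd1, which encodes polycystin-1, had 0.814 ± 0.410 TPM (rank 10812).

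**Figure D1:**
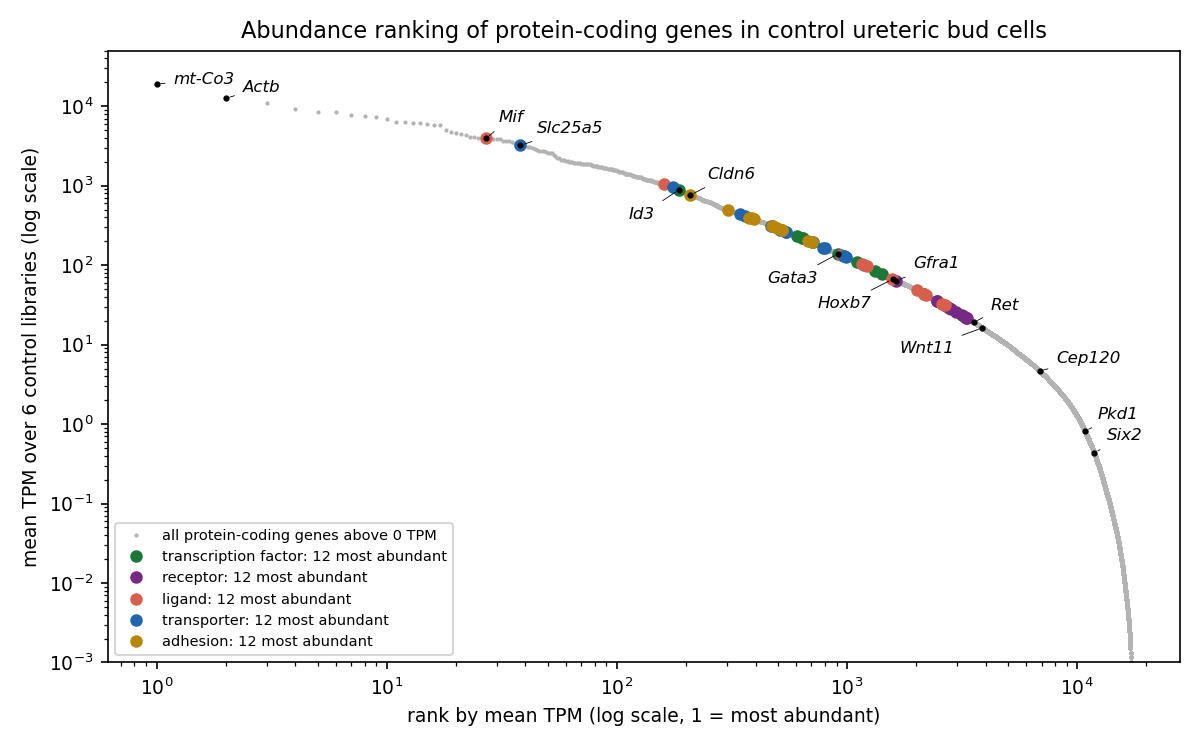
Mean TPM over the 6 control libraries (log scale) against abundance rank (log scale) for all protein-coding genes above 0 TPM (grey), with the 12 most abundant members of 5 functional classes in colour and selected genes named. The ligand Mif and the transporter Slc25a5 rank 27 and 38, while the highest receptor, Gfra1, ranks 1639.

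Level also went with transcript length. Among 10431 genes with at least 1 TPM and an annotated transcript, the median level was 55.1 TPM in the tenth of genes with the shortest transcripts and 3.55 TPM in the tenth with the longest (Spearman's rho across genes -0.379, a description, since genes are not independent). Among mitosis genes, the proliferation marker Mki67, whose longest annotated transcript has 10061 bases, was at 0.685 TPM, and the kinetochore motor Cenpe (7910 bases) at 0.883 TPM. Ube2c, a gene for a ubiquitin-conjugating enzyme of mitotic exit (2191 bases), was at 212 TPM. Cdk1, the kinase that drives entry into mitosis, was at 278 TPM, and its longest annotated transcript has 4375 bases. In Cep120-line control 1 it had 5215 counts at 273 TPM, and Ube2c had 3139 counts at 186 TPM. Counts per TPM follow the length used for scaling, so that length was similar for both genes. The longest annotated transcript thus need not be the one quantified, and Cdk1 is no clear departure from the trend. The summed level of the 16 mitosis genes was 1114 to 1415 TPM per library. The part of transcript length in the low values of Pkd1 and Mki67 was not tested.

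All 4 genes used to mark the ureteric bud were expressed in every library. Ret, the GDNF receptor tyrosine kinase (chr6:118151745-118197718 on the minus strand, GRCm38), measured 18.4, 17.2 and 13.3 TPM in Cep120-line controls 1, 2 and 3 and 19.8, 19.2 and 26.2 TPM in Pkd1-line controls 1, 2 and 3. Each Pkd1-line library lay above each Cep120-line library, with a mean of 19.0 ± 4.21 TPM (rank 3557), but the lines overlapped after TMM rescaling. Wnt11, the tip ligand (chr7:98835112-98855195 on the plus strand), measured 17.2, 17.2 and 14.0 TPM in Cep120-line controls 1, 2 and 3 and 17.8, 14.2 and 17.1 TPM in Pkd1-line controls 1, 2 and 3. The lines overlapped, and at 16.3 ± 1.69 TPM Wnt11 was nearly as abundant as its upstream receptor Ret. Hoxb7, whose promoter drives the Cre transgene (chr11:96286623-96290162 on the plus strand), measured 54.0, 68.8 and 77.7 TPM in Cep120-line controls 1, 2 and 3 and 73.2, 69.0 and 58.6 TPM in Pkd1-line controls 1, 2 and 3. Its mean was 66.9 ± 8.95 TPM and the lines overlapped. Gata3, a zinc finger factor required in the nephric duct lineage (chr2:9857078-9890034 on the minus strand), measured 109, 111 and 104 TPM in Cep120-line controls 1, 2 and 3 and 179, 157 and 177 TPM in Pkd1-line controls 1, 2 and 3. The Pkd1-line values were all above the Cep120-line values, and Gata3 was the most abundant of the 4 markers at 139 ± 35.5 TPM (rank 913). In the order of their levels, Wnt11 and Ret overlapped over the 6 libraries, Hoxb7 lay above both in every library, and Gata3 above Hoxb7 in every library.

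The wider lists of cell type genes described the sorted cells further. Of 22 ureteric lineage genes, 21 reached 1 TPM, and their sum per library was 1489.6 to 1989 TPM. The lines did not overlap in this sum, with 1489.6 to 1554 TPM in the Cep120 line and 1793 to 1989 TPM in the Pkd1 line. The calcium buffer Calb1, an early marker of the ureteric lineage, led the list at 474 ± 66.2 TPM, followed by the simple-epithelium keratins Krt18 (407 ± 16.3 TPM) and Krt8 (165 ± 11.98 TPM). Krt18 was also steady, at 386 to 428 TPM. The homeobox factors Emx2 (20.3 TPM) and Lhx1 (8.30 TPM) and the paired-box factors Pax8 (12.3 TPM) and Pax2 (4.83 TPM) were present at lower levels, and only Grhl3, a Grainyhead factor of stratified epithelia, was under 1 TPM, at 0.146 TPM. All 16 tip genes reached 1 TPM, with sums of 514 to 739 TPM. After Dusp6, a phosphatase that limits ERK signalling (169 ± 31.7 TPM), the highest tip genes were Tmem59l (98.6 ± 15.04 TPM), Etv4 (75.2 ± 18.9 TPM) and Gfra1 (63.6 ± 16.9 TPM).

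Of 16 genes of the trunk and collecting duct, 10 reached 1 TPM and 4 reached 10 TPM. The list summed to 164 to 196 TPM per library. The beta and gamma subunits of the epithelial sodium channel, Scnn1b and Scnn1g, were at 10.3 ± 1.64 TPM and 10.4 ± 1.02 TPM. The alpha subunit, Scnn1a, which is needed for full channel activity, was at 0.135 ± 0.0667 TPM. Scnn1a was thus below Scnn1b in every library, with the highest Scnn1a value at 0.202 TPM and the lowest Scnn1b value at 8.51 TPM. Genes of mature principal and intercalated cells were near or at 0: the vasopressin-regulated water channel Aqp2 was at 0.0517 TPM, and Atp6v1b1, the proton pump subunit of intercalated cells, had 0 counts in all 6 libraries, where a count of 3 corresponds to 0.109 to 0.165 CPM (counts scaled by the library total). The basolateral water channel Aqp3 (2.71 TPM) and the vasopressin receptor Avpr2 (6.75 TPM) were low but present.

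Markers of the neighbouring cell types were mostly low. In the nephron progenitor list 3 of 10 genes reached 1 TPM. Six2, which defines the progenitors, was at 0.433 TPM, and the mesenchymal ligand Gdnf was at 0.0843 TPM, whereas Cited1, a transcriptional co-regulator, was at 42.8 ± 11.8 TPM. Of 11 genes of nascent nephrons and podocytes, only Nphs1, the nephrin gene, reached 1 TPM, at 14.9 ± 1.91 TPM. The stromal list had sums of 3.50 to 34.1 TPM, and 10 of its 13 members were highest in Cep120-line control 2, without which the mean sum went from 12.4 to 8.01 TPM. Of the 13 stromal genes, 5 reached 1 TPM and none reached 10 TPM. Foxd1, which defines the renal stroma, was at 0.0598 TPM. The endothelial list had sums of 35.4 to 77.7 TPM, nearly all from Egfl7 (56.1 ± 13.1 TPM), while Cdh5, the endothelial cadherin, was at 0.0675 TPM and the adhesion molecule Pecam1 at 0.343 TPM.

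Erythroid transcripts were the exception in all 6 libraries, and platelet transcripts in Cep120-line control 2. The erythroid sum was 946, 14329 and 7427 TPM in Cep120-line controls 1, 2 and 3 and 606, 10439 and 6313 TPM in Pkd1-line controls 1, 2 and 3. Control 1 of each line was low and the other 4 libraries were high, a 23.6-fold span that did not follow the lines. The platelet list summed to 852 TPM in Cep120-line control 2 and to 4.48 TPM in Pkd1-line control 1, where it was lowest; its mean was 171 TPM with all 6 libraries and 34.5 TPM without Cep120-line control 2. The macrophage and leukocyte list summed to 63.7 to 78.8 TPM in the Cep120 line and to 21.6 to 37.2 TPM in the Pkd1 line. Of its 14 genes, 8 reached 1 TPM and 1 reached 10 TPM. Ptprc, the pan-leukocyte surface phosphatase CD45, was at 0.924 TPM. The neural list stood out in Pkd1-line control 2, at 157 TPM against 14.2 to 22.5 TPM in the others, through the neuronal tubulin Tubb3, the microtubule regulator Stmn2 and the RNA-binding protein Elavl4, while Sox10 was at 0 in all 6, and the mean sum of the list went from 42.0 to 19.04 TPM without that library. In bulk RNA, fewer cells of a type and less RNA per cell cannot be told apart.

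**Figure D2:**
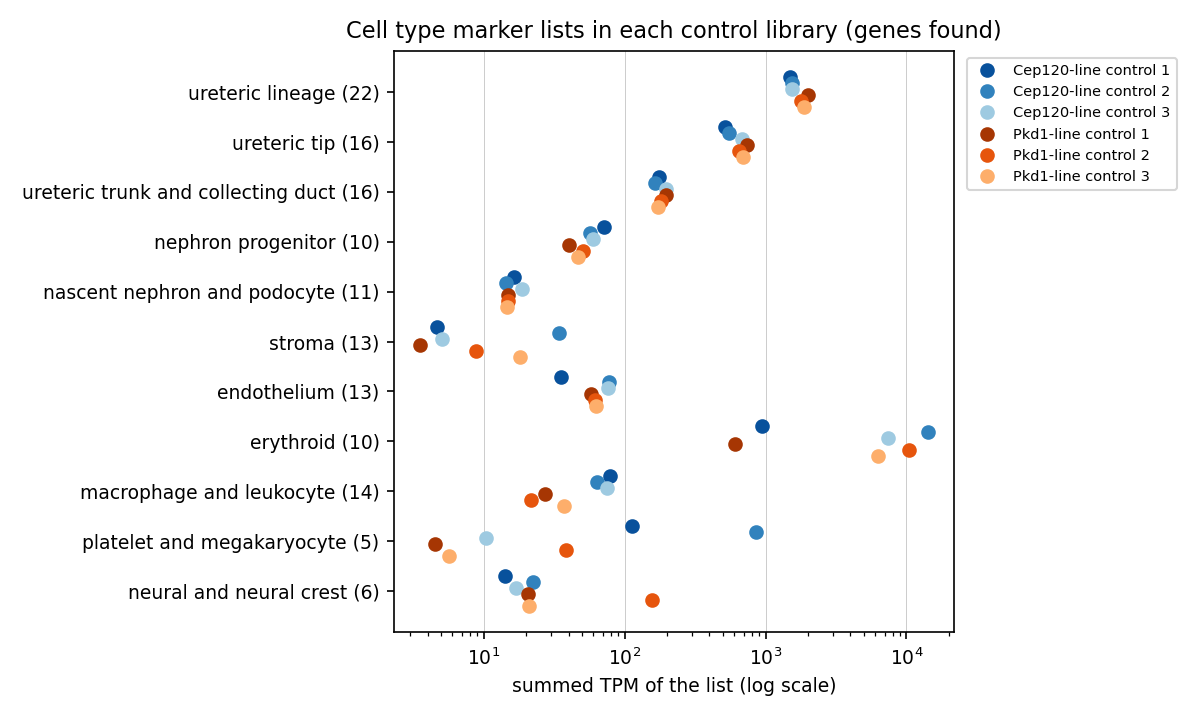
Summed TPM (log scale) of 11 cell type lists in each of the 6 control libraries, with the number of genes found in parentheses. The ureteric lineage list spans 1.34-fold and the tip list 1.44-fold over the libraries, whereas the erythroid and platelet lists span the widest ranges.

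Transcription factors were numerous but individually rare. Of 1181 genes placed in this class by their symbol, 616 reached 1 TPM, 126 reached 10 TPM and 9 reached 100 TPM. Together they held 0.866% of protein-coding TPM, with 7496 ± 659 TPM. For all protein-coding genes the corresponding counts were 10439 at 1 TPM and 4960 at 10 TPM. The most abundant was Id3 at 889 ± 121 TPM (rank 186), an inhibitor that binds helix-loop-helix factors and itself lacks a DNA-binding region, and the related Id2 was at 217 ± 35.5 TPM. Id3 ranged over 743 to 1096 TPM, highest in Cep120-line control 2 and lowest in Pkd1-line control 2. Trp53, which encodes the p53 tumour suppressor, was at 234 ± 18.3 TPM, and the leucine zipper factor Tsc22d1 at 259 ± 30.6 TPM. Gatad1 (221 TPM), Zfp207 (194 TPM) and Zfp706 (280.1 TPM) entered the class through their zinc finger names, although the first is a chromatin protein and Zfp207 is also known as a spindle protein. Gata3, described above, stood directly ahead of the homeobox repressor Tgif1 at 111 ± 13.7 TPM.

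The factors that act in the bud were spread over the next tier. Sox11, an SRY-box factor of embryonic progenitors, measured 90.3, 89.4 and 64.5 TPM in Cep120-line controls 1, 2 and 3 and 110.1, 74.1 and 33.5 TPM in Pkd1-line controls 1, 2 and 3, low in Pkd1-line control 3 only. Etv4 measured 78.5, 89.7 and 102 TPM in Cep120-line controls 1, 2 and 3 and 66.4, 48.6 and 66.2 TPM in Pkd1-line controls 1, 2 and 3, and all Cep120-line values were above the Pkd1-line values. Its close relative Etv5 measured 45.1, 54.1 and 54.1 TPM in Cep120-line controls 1, 2 and 3 and 76.4, 68.6 and 76.5 TPM in Pkd1-line controls 1, 2 and 3, and here all Pkd1-line values were the higher. These targets of RET signalling stood in opposite order in the lines, and both separations remained after TMM rescaling. Hes1, the Notch effector, was at 62.2 ± 9.43 TPM, the AP-2 factor Tfap2b at 60.1 ± 11.97 TPM, the epithelial ETS factor Elf3 (picked once its values were known) at 55.4 ± 5.12 TPM, the T-box repressor Tbx3 at 33.5 ± 8.25 TPM and the tip factor Sox9 at 25.8 ± 6.83 TPM. Among 39 Hox genes, 16 reached 1 TPM and 4 reached 10 TPM, and Hoxb7 alone gave 37.7% of their sum. The next were Hoxd8 (29.999 ± 4.05 TPM) and Hoxb9 (26.3 ± 2.88 TPM), which were picked once their values were known. No forkhead gene reached 10 TPM, and 9 of 44 reached 1 TPM. All 10 E2F family genes, the cell cycle regulators, reached 1 TPM.

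Receptors were the least abundant class. Of 476 genes, 142 reached 1 TPM, 36 reached 10 TPM and none reached 100 TPM, and together they held 0.138% of protein-coding TPM. The most abundant was Gfra1, the GDNF co-receptor, which measured 44.8, 50.6 and 54.5 TPM in Cep120-line controls 1, 2 and 3 and 90.3, 68.7 and 72.6 TPM in Pkd1-line controls 1, 2 and 3. The Pkd1-line values were all above the Cep120-line values, with a mean of 63.6 ± 16.9 TPM. Gfra1 was above Ret in every library. Ackr3, an atypical receptor that takes up the chemokine CXCL12, was the second at 44.0 ± 4.91 TPM, with overlapping lines, and Cxcr4, the signalling receptor of the same chemokine, was at 14.1 ± 5.04 TPM. The Wnt pathway was represented by the R-spondin receptor Lgr4 (27.9 ± 3.99 TPM) and by Znrf3 (35.2 ± 5.201 TPM), a membrane ubiquitin ligase that removes Frizzled receptors from the surface and that entered the class with them. Of the 17 genes of that family, 12 reached 1 TPM.

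Among 55 receptor tyrosine kinases, 25 reached 1 TPM and 4 reached 10 TPM. Fgfr2, the FGF receptor of the ureteric epithelium, was the highest at 20.6 ± 3.60 TPM and Ret followed, while Erbb3 had 14.5 ± 3.41 TPM and Met, the HGF receptor, 2.43 ± 0.744 TPM; Erbb3 and Met were picked once their values were known. Fgfr2 and Ret overlapped over the libraries and did not differ beyond their spread. The guidance receptors were led by Nrp1, which binds class 3 semaphorins and VEGF, at 19.0 (lowest), 28.9 (median) and 49.9 TPM (highest); its highest library was Pkd1-line control 1. The interleukin-11 receptor Il11ra1 was the only steady receptor gene, at 25.7 to 32.1 TPM. The interferon gamma receptor chain Ifngr1 was at 13.8 to 32.4 TPM, with the Pkd1 line above the Cep120 line, and the TWEAK receptor Tnfrsf12a at 18.0 to 35.5 TPM, with the Cep120 line above the Pkd1 line. Smo, the transducer of Hedgehog signals, was at 19.6 ± 3.18 TPM, and the activin receptor Acvr2b was the highest of the TGF-beta superfamily receptors at 14.5 ± 2.45 TPM.

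Ligands were dominated by few genes. Of 359 genes, 83 reached 1 TPM, 25 reached 10 TPM and 5 reached 100 TPM, and Mif gave 62.8% of the class sum of 6278 TPM. Mif, a cytokine that many cell types hold in the cytoplasm, was at 3943 ± 320.0 TPM (rank 27). Midkine, the heparin-binding growth factor encoded by Mdk, was at 1040.3 ± 141 TPM, and its relative pleiotrophin, Ptn, at 96.5 ± 14.1 TPM. Fstl1, a secreted antagonist of BMPs, was at 196 ± 36.6 TPM, the insulin-like growth factor Igf2 at 103 ± 18.8 TPM and the membrane-bound ephrin Efna5 at 67.6 ± 20.9 TPM. The platelet chemokine Pf4 ranked among them with a mean of 135 TPM, but it measured 77.2, 693 and 8.82 TPM in Cep120-line controls 1, 2 and 3 and 1.83, 26.5 and 2.55 TPM in Pkd1-line controls 1, 2 and 3. That mean therefore rests on Cep120-line control 2, the library with the highest platelet and stromal sums. Sema3c, a secreted semaphorin, was at 48.2 ± 11.2 TPM, Kitl, the ligand of the KIT receptor, at 32.2 ± 10.3 TPM, and Sostdc1, an antagonist of BMP and Wnt signals, at 31.2 ± 5.55 TPM.

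The classical morphogens of the kidney were lower. Wnt11 was the highest of 19 Wnt genes, of which 6 reached 1 TPM. Wnt9b and Wnt7b, the trunk ligands that act on progenitors and stroma, were at 3.96 ± 1.27 TPM and 1.64 ± 0.369 TPM, and Wnt6 was at 8.01 ± 3.47 TPM. Bmp7 was the highest BMP at 14.9 ± 2.32 TPM, and Fgf9 the highest FGF at 5.48 ± 0.892 TPM. Shh, the Hedgehog ligand of the distal ureteric tree, was at 0.481 ± 0.164 TPM. Wnt6 and Shh were picked once their values were known. The Notch ligand Jag1 varied more than the other ligands named here, Pf4 aside, and measured 13.1, 8.23 and 14.2 TPM in Cep120-line controls 1, 2 and 3 and 35.6, 31.1 and 41.0 TPM in Pkd1-line controls 1, 2 and 3. Every Pkd1-line library was above every Cep120-line library. Of 30 genes of the RET and GDNF pathway, 28 reached 1 TPM and 16 reached 10 TPM. The ligand Gdnf was at 0.0843 TPM, the adaptor Grb7 was the highest member at 192 ± 22.9 TPM, and of the feedback inhibitors Spry2 was at 131 ± 41.8 TPM, Spry1 at 44.5 ± 10.9 TPM and Spry4 at 6.82 ± 1.23 TPM. Spry2 measured 69.5, 89.5 and 146 TPM in Cep120-line controls 1, 2 and 3 and 165, 148 and 171 TPM in Pkd1-line controls 1, 2 and 3, and the Pkd1 line was the higher throughout, though the lines overlapped after TMM rescaling.

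**Figure D3:**
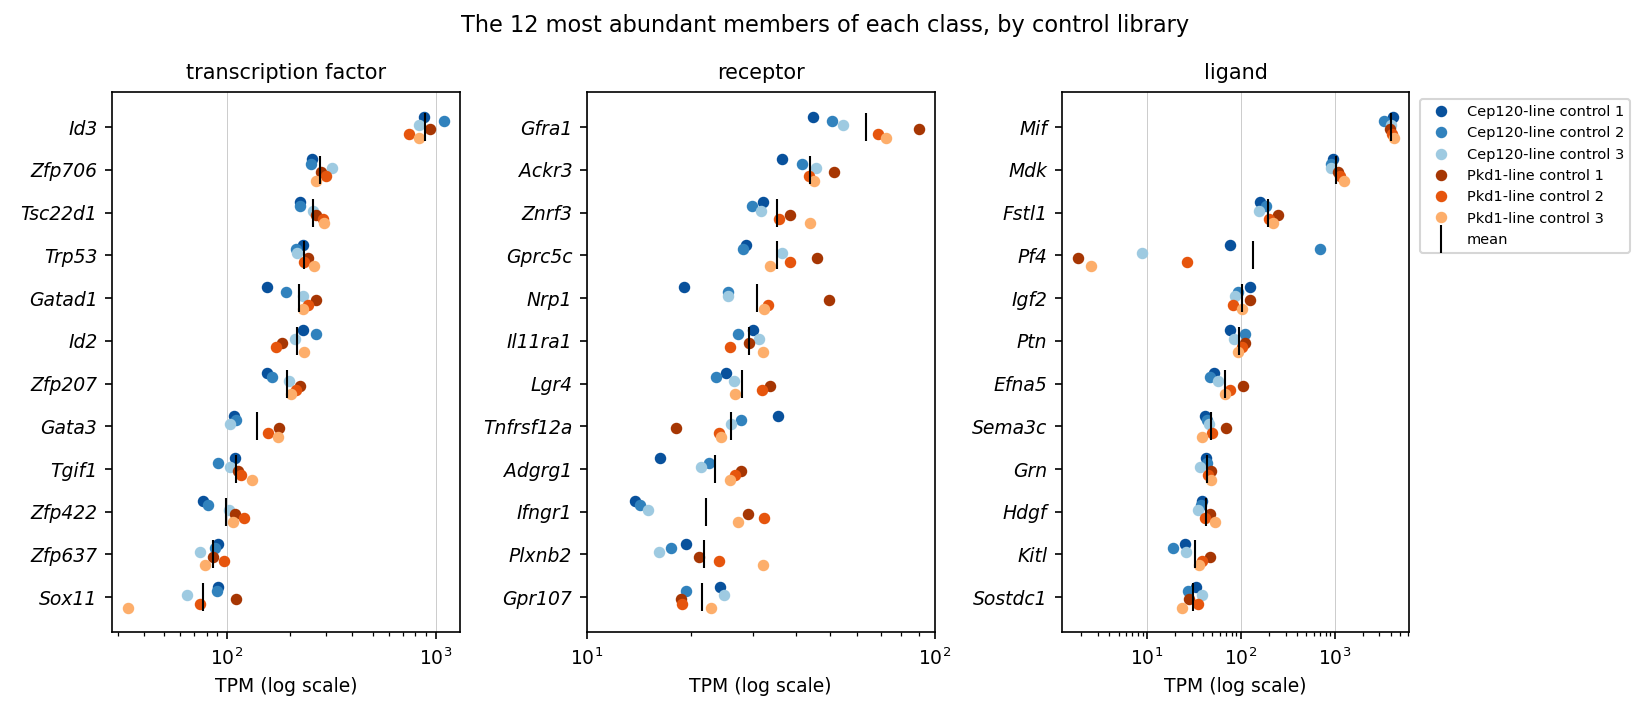
TPM (log scale) of the 12 most abundant transcription factor, receptor and ligand genes in each of the 6 control libraries, with the mean as a vertical bar. Most genes stay within a narrow band, whereas Pf4 runs from 1.83 to 693 TPM.

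Transporters formed the most abundant of the 5 classes in TPM, though not in CPM, where transcription factors summed to 16226 and transporters to 16014. They summed to 10064 ± 323 TPM, or 1.16% of protein-coding TPM. Of 744 genes, 289 reached 1 TPM and 99 reached 10 TPM. The mitochondrial inner membrane carriers led: Slc25a5 and Slc25a4, which exchange ADP for ATP, were at 3213 ± 257 TPM and 968 ± 116 TPM, and Slc25a5 alone gave 31.9% of the class. For both, all Cep120-line values lay above the Pkd1-line values, which is the less frequent direction. Slc25a3, the mitochondrial phosphate carrier, was at 314 ± 16.8 TPM. Subunits of the vacuolar proton pump, which acidifies endosomes and lysosomes, followed, and 16 of 25 reached 10 TPM. Atp6v1f was at 437 ± 28.3 TPM and Atp6v0c at 412 ± 28.5 TPM, and 6 of the 16 were steady.

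At the plasma membrane the zinc importer Slc39a1 had a mean of 129 TPM but measured 48.5, 105 and 156 TPM in Cep120-line controls 1, 2 and 3 and 171, 133 and 163 TPM in Pkd1-line controls 1, 2 and 3, and Cep120-line control 1 was the low library. The glucose transporter Slc2a1, picked once its values were known, was at 101 ± 18.0 TPM. Kcnk1, a background potassium channel, was at 57.9 ± 6.30 TPM and gave 67.8% of the summed level of 98 potassium channel genes, of which 8 reached 1 TPM. Fxyd6, a regulatory subunit of the sodium pump, was at 41.6 ± 7.01 TPM. Of 12 aquaporins, 3 reached 1 TPM, and the intracellular aquaporin Aqp11 was the highest at 8.09 ± 0.553 TPM. Trpv4, a mechanosensitive cation channel, was at 13.2 ± 2.86 TPM, and Pkd2, the channel partner of polycystin-1, was at 2.21 ± 0.650 TPM and was picked once its values were known.

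Adhesion genes were led by the claudins. Of 309 genes, 126 reached 1 TPM, 57 reached 10 TPM and 19 reached 100 TPM, with a sum of 6559 ± 361 TPM. Claudins, the strand-forming proteins of tight junctions, gave 2136 TPM of it, and 5 of 25 claudins reached 100 TPM. Cldn6, a claudin of embryonic epithelia, was the most abundant adhesion gene at 760.0 ± 80.8 TPM, followed among claudins by Cldn7 (395 ± 49.7 TPM), Cldn3 (387 ± 43.9 TPM), Cldn4 and Cldn8 (194 ± 34.7 TPM). Cldn4, a claudin of the collecting duct, measured 426, 432 and 555 TPM in Cep120-line controls 1, 2 and 3 and 92.8, 68.5 and 69.0 TPM in Pkd1-line controls 1, 2 and 3. The Cep120-line controls were several times above the Pkd1-line controls, with no overlap, and Cldn4 was the only variable gene of the adhesion class. The other 4 claudins named here stayed within a ratio of 1.49 between the highest and lowest library.

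Of the cadherins, which join neighbouring cells, the kidney-specific Cdh16 was the highest at 66.5 ± 11.6 TPM, ahead of the placental type Cdh3 at 58.9 ± 9.84 TPM and the epithelial type Cdh1 at 31.2 ± 7.22 TPM. Cdh16 and Cdh3 overlapped over the libraries, while Cdh1 was below both in every library. Cdh3 was picked once its values were known. The cytoplasmic partner Ctnnb1, beta-catenin, was at 165 ± 25.3 TPM. Epcam, an epithelial adhesion molecule, measured 76.0, 74.4 and 102 TPM in Cep120-line controls 1, 2 and 3 and 186, 150.1 and 158 TPM in Pkd1-line controls 1, 2 and 3, and the Pkd1 line was the higher throughout. The tetraspanins Cd63 (493 ± 49.8 TPM), Cd81 (311 ± 34.5 TPM) and Cd9 (204 ± 16.4 TPM) and the mucin-like surface protein Cd24a (382 ± 32.6 TPM) were among the most abundant. The heparan sulfate proteoglycans Gpc3 (309 ± 40.9 TPM) and Sdc4 (293 ± 41.4 TPM), which hold growth factors at the cell surface, also exceeded 100 TPM. The gap junction gene Gja1 was at 105 ± 22.6 TPM. Matrix receptors were lower: the integrin chains Itgav, Itgb1 and Itga6 were at 29.3 ± 7.89 TPM, 24.0 ± 3.04 TPM and 13.6 ± 2.55 TPM. Of the laminins of the basement membrane, Lamb1 was at 21.5 ± 4.99 TPM and Lamc1 at 16.9 ± 3.57 TPM. Itgb1, Itga6 and Lamc1 were picked once their values were known. None of 13 desmosome genes reached 10 TPM.

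**Figure D4:**
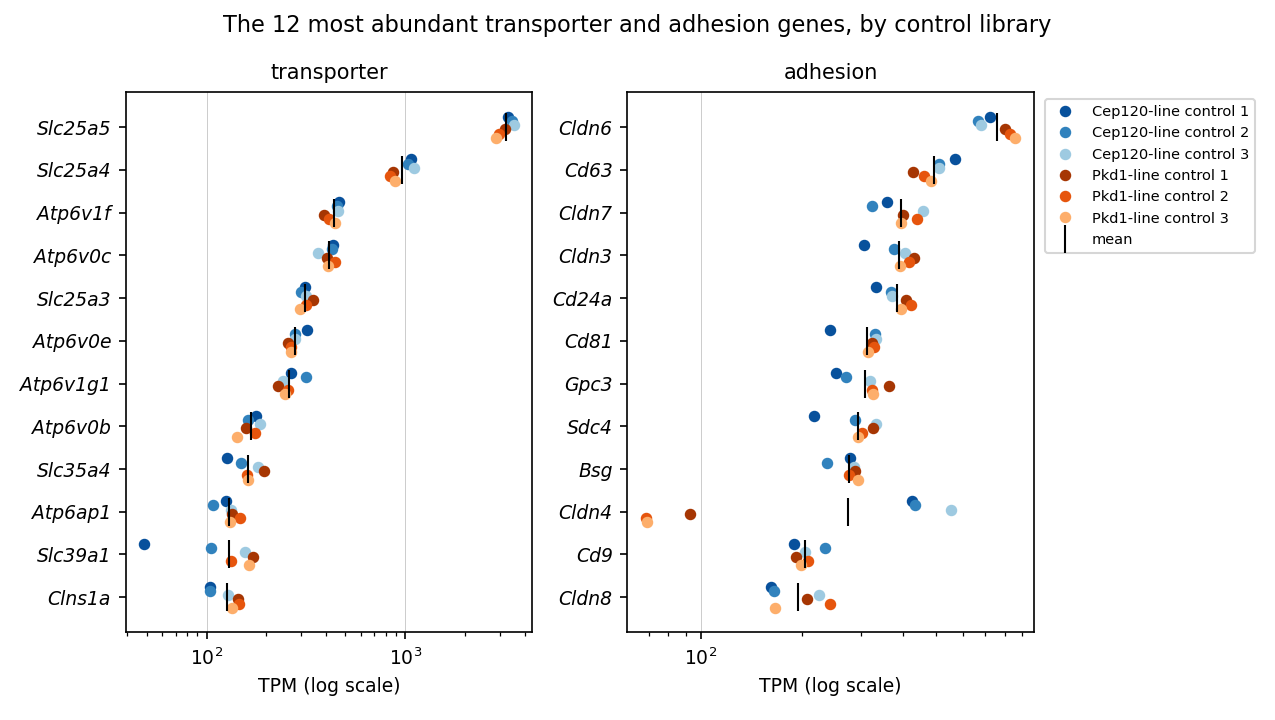
TPM (log scale) of the 12 most abundant transporter and adhesion genes in each of the 6 control libraries, with the mean as a vertical bar. Cldn4 separates the Cep120-line from the Pkd1-line controls, and Slc39a1 is low in Cep120-line control 1.

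Steadiness was measured on the 4960 genes with a mean of at least 10 TPM, by the ratio of the highest to the lowest library after adding 1 TPM to each. A gene was called steady where the highest library was at most 25% above the lowest and variable at a ratio of at least 4. The median ratio was 1.41, with 1172 steady genes (23.6%) and 37 variable genes (0.746%). Steadiness rose with level: 6.73% of genes at 10 to 30 TPM were steady, 23.6% at 30 to 100 TPM, 54.1% at 100 to 1000 TPM and 64.9% above 1000 TPM. The coefficient of variation of steady genes had a median of 6.51%. Just inside the threshold lay Ran (1.2499) and Mrps25 (1.2499), and just outside lay Cfap20 (1.2502) and Blmh (1.2503). On the variable side Ahcy (4.01) and Car2 (4.05) lay just inside and Blvrb (3.99) and Hist1h2ao (3.96) just outside.

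Shares of steady genes differed between families of basic cell maintenance. Of 83 cytoplasmic ribosomal protein genes, 63 were steady, as were 24 of 35 proteasome subunit genes, 43 of 79 nuclear genes of the respiratory chain and 23 of 49 translation factor genes. Of spliceosome and hnRNP genes, 18 of 49 were steady, and of tubulin and actin genes 3 of 23. The share of respiratory chain genes, 54.4%, was close to the 54.1% given above for all genes at 100 to 1000 TPM, the range that holds their median of 519.9 TPM. In the functional classes the counts were 6 of 126 transcription factors, 1 of 36 receptors, 1 of 25 ligands, 12 of 99 transporters and 4 of 57 adhesion genes. Many genes of these classes sit at lower levels, where fewer genes are steady, and the part of the level in these counts was not tested. No mitochondrially encoded gene was steady, although all 13 are abundant. The steadiest gene by the SD of log2(TPM + 1), with predicted, Xist and Y-linked genes left out, was Rpp25l. It encodes a protein related to a subunit of ribonuclease P and was at 108 to 113 TPM (mean 109.8 ± 1.60 TPM). Cnpy2, a protein of the endoplasmic reticulum, was at 239.6 to 251 TPM, Cope, a subunit of the COPI vesicle coat, at 263 to 277 TPM, and the elongation factor subunit Eef1b2 at 1375 to 1459 TPM. After TMM rescaling, Rpp25l, Cnpy2, Cope and Eef1b2 were all higher in the Cep120 line without overlap. As deposited this held for Eef1b2 only, so their small spread depends on the scaling. Tmcc1, Cops7a of the COP9 signalosome, the tropomyosin Tpm1, the calcium-binding protein Pef1, the chromatin proteins Banf1 and Hmgn2, the translation factor Denr, the galactose enzyme Galt, Dmac1, the oxysterol hydroxylase Cyp7b1 and the cargo receptor Tmed10 completed the 15 steadiest, with ratios up to 1.08.

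Of the 37 variable genes, 17 belonged to none of the histone, globin, platelet and neural lists. Replication-dependent histone genes were 11 of the 37, out of 26 such genes at 10 TPM, and none of the 26 was steady. H2ac12, a gene for histone H2A, had the widest ratio in the table: it measured 394, 548 and 1799.7 TPM in Cep120-line controls 1, 2 and 3 and 2.40, 0.478 and 2.47 TPM in Pkd1-line controls 1, 2 and 3. It was thus high in the Cep120 line and nearly absent in the Pkd1 line, while H2ac11, another H2A gene, measured 17.4, 28.3 and 3.75 TPM in Cep120-line controls 1, 2 and 3 and 92.3, 65.1 and 71.5 TPM in Pkd1-line controls 1, 2 and 3 and was higher in the Pkd1 line. These genes are near-identical in sequence and their reads can be shared among copies, so the values of single histone genes are uncertain, and the summed level of all 63 genes ran from 2163 to 4746 TPM. Globins were 6 of the variable genes and platelet chemokines 2 (Pf4 and Ppbp). Hbb-bs, an adult beta globin, measured 165, 4232 and 925 TPM in Cep120-line controls 1, 2 and 3 and 113, 2002 and 891 TPM in Pkd1-line controls 1, 2 and 3. It was high in Cep120-line control 2 and low in control 1 of each line. The erythroid sum, of which it is a part, had the same pattern. Tubb3 was high in Pkd1-line control 2 alone, at 133.5 TPM, against a highest value of 19.6 TPM elsewhere.

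Of the 17 variable genes outside these lists, Apoa2, an apolipoprotein of lipid transport, measured 2.02, 174 and 2.97 TPM in Cep120-line controls 1, 2 and 3 and 2.20, 7.75 and 2.87 TPM in Pkd1-line controls 1, 2 and 3, and was high in Cep120-line control 2 alone. In the same library the metallothionein Mt1, a metal-binding protein, was at 159 TPM against 45.4 TPM in the next, and Car2, the carbonic anhydrase of red cells and collecting duct, at 223 TPM against 96.0 TPM; the part of the blood cell transcripts in these values was not tested. Pgls, an enzyme of the pentose phosphate pathway, measured 25.4, 180.2 and 240.2 TPM in Cep120-line controls 1, 2 and 3 and 226, 209 and 203 TPM in Pkd1-line controls 1, 2 and 3, low in Cep120-line control 1 only. Rpl34 was the single ribosomal protein gene among the variable ones and measured 2215, 2183 and 2421 TPM in Cep120-line controls 1, 2 and 3 and 1474, 1052 and 492 TPM in Pkd1-line controls 1, 2 and 3, higher in the Cep120 line. Several genes separated the lines as Cldn4 and Jag1 did. Med1, a subunit of the Mediator complex, measured 11.7, 16.1 and 8.04 TPM in Cep120-line controls 1, 2 and 3 and 50.3, 48.4 and 52.2 TPM in Pkd1-line controls 1, 2 and 3, higher in the Pkd1 line. Ahcy, the enzyme that hydrolyses S-adenosylhomocysteine, measured 43.9, 32.2 and 48.2 TPM in Cep120-line controls 1, 2 and 3 and 15.1, 11.3 and 13.6 TPM in Pkd1-line controls 1, 2 and 3, higher in the Cep120 line. Of the 37 variable genes, 17 had lines that did not overlap, 11 with the Cep120 line higher and 6 with the Pkd1 line higher, a share to be read against the 31.9% given above for all genes at 10 TPM. Cep120-line control 3 was the highest library for 15 of the 37 genes and Cep120-line control 2 for 11.

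**Figure D5:**
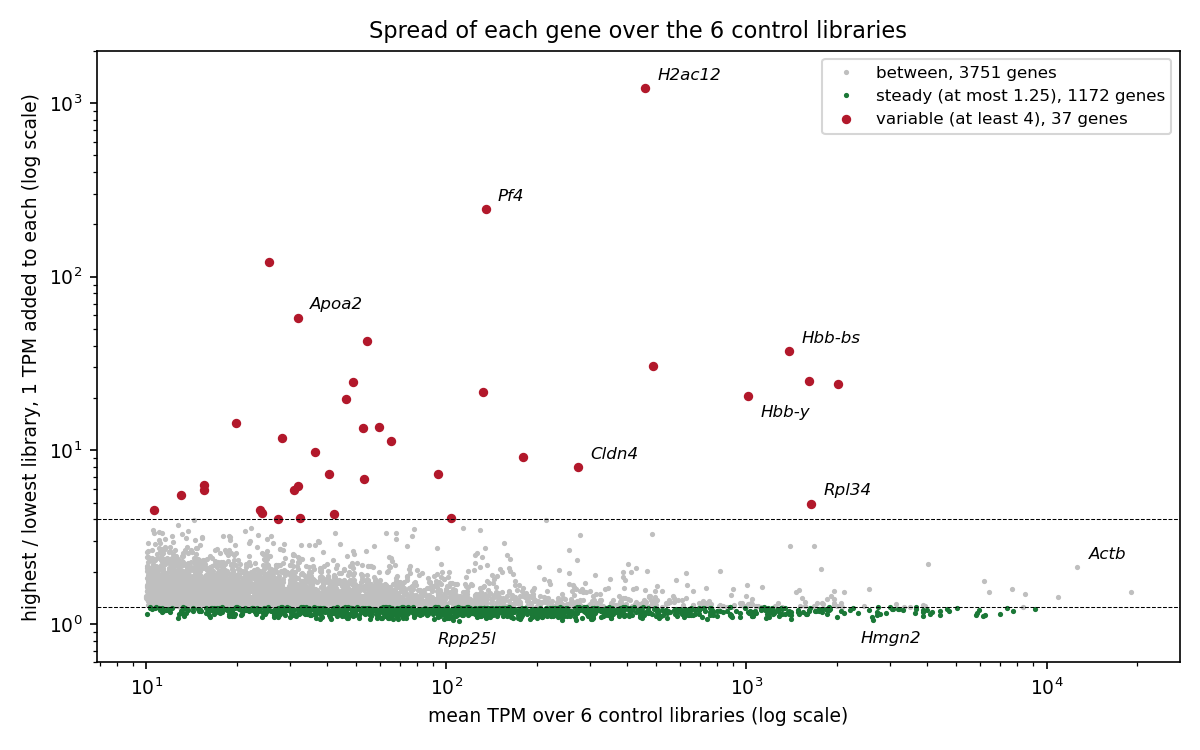
Ratio of the highest to the lowest of the 6 control libraries (1 TPM added to each, log scale) against mean TPM (log scale) for 4960 genes with a mean of at least 10 TPM. Steady genes (1172, green) lie at or under the lower dashed line and variable genes (37, red) at or above the upper one.

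The promoters of steady and variable genes were compared, because the deposited values do not enter them. RefSeq promoters (build GRCm38.p6, 250 bases before to 50 bases after the start) were found for 959 of 1172 steady genes and 34 of 37 variable genes, and counts are of promoters, since some genes have several. The TATAA motif, searched on the gene's strand between 40 and 16 bases before the start, was in 21.6% of the 37 promoters of variable genes (8 promoters), in 1.45% of the 1173 promoters of steady genes, in 1.87% of the promoters of all genes at 10 TPM and in 3.52% of all 32851 promoters in the table. Globin genes gave 5 of those 8 promoters. The CCAAT motif, searched on both strands in the 250 bases before the start, was in 62.2% of variable, 37.7% of steady, 37.8% of promoters at 10 TPM and 33.8% of all promoters, and 9 of 10 histone promoters held it. The motif CCGGAAG, the core that ETS factors bind, searched on both strands in all 300 bases, was in 5.41% of variable, 29.4% of steady, 23.04% of promoters at 10 TPM and 8.86% of all promoters. The median number of CG dinucleotides per 300 bases was 11 in variable, 21 in steady, 21 in promoters at 10 TPM and 7 in all promoters. Variable genes outside the histone, globin, platelet and neural lists had 18 promoters. Of these, 0 held TATAA, 38.9% held CCAAT and 11.1% held CCGGAAG, with a median of 17 CG dinucleotides. The higher TATAA and CCAAT shares of variable genes were thus not seen in this part. These shares are descriptions of the sequence and say nothing of the binding of a factor. As examples, the last 60 bases before the start are printed for 4 globin genes, for Cldn4 and for 4 of the steadiest genes. They run 5′ to 3′ on the gene's strand in lower case. Capitals mark TATAA in its window and CCAAT or its reverse complement ATTGG.
Hba-a1, chr11:32283612-32283671, plus strand: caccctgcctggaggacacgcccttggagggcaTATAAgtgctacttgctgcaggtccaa
Hba-a2, chr11:32296432-32296491, plus strand: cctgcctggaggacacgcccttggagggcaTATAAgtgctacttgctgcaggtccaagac
Hbb-bs, chr7:103827929-103827988, minus strand: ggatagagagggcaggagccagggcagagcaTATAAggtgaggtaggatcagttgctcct
Hbb-bt, chr7:103813924-103813983, minus strand: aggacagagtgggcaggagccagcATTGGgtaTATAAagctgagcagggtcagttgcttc
Cldn4, chr5:134946935-134946994, minus strand: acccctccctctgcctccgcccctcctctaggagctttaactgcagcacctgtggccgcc
Cnpy2, chr10:128322399-128322458, plus strand: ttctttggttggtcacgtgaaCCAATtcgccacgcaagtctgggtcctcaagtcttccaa
Rpp25l, chr4:41713518-41713577, minus strand: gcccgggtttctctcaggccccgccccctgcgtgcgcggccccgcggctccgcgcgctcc
Cope, chr8:70302707-70302766, plus strand: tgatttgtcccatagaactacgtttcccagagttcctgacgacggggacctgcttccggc
Eef1b2, chr1:63176771-63176830, plus strand: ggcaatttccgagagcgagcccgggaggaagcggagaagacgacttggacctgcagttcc
In the globin promoters TATAA began 27 to 30 bases before the start. The 5 other promoters held no TATAA in the window, and Cnpy2 held a CCAAT motif within the printed stretch. Hba-a1 and Hba-a2 are near-identical copies, so their reads can be shared between them.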

How the data were processed

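Per the labels' protocols, complementary DNA of GFP-sorted kidney cells was amplified (SMARTer Ultra Low RNA), a method that keeps no strand. The authors deposited TPM, CPM and estimated counts per gene. The submitters' processing notes name DRAGEN and mm9 without a role, and the counting step is not given in the sources used here. Of 55774 lines, 287 repeats of an identifier were dropped, leaving 55487 genes and 21936 protein-coding genes. Deposited TPM were used as they stand, deposited CPM served as an alternative, and deposited estimated counts gave depth, counting error and, after rounding, TMM factors (edgeR 4.0.16 in R 4.3.3). Figures and summaries used Python 3.11.15 with pandas 2.3.3, numpy 2.4.6 and matplotlib 3.10.9. The ratio for steady and variable genes used 1 TPM added and a mean of at least 10 TPM. The spread calculation was tested on simulated counts with counting error only, which checks the code. The median coefficient of variation of genes at 10 TPM was 13.4%, against 2.77% from counting error. Calling rates in these libraries were thus not tested. No test between groups was run.

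Positions and transcript lengths come from GENCODE M21 (GRCm38), matched by identifier for 21817 protein-coding genes, and promoters from RefSeq GRCm38.p6, so neither is the build the submitters name. Classes were set by symbol patterns, and 3 patterns (ligands, TRP channels, histones) were corrected after the data were seen because they took genes of other kinds. Genes are named by a rule: Cep120, Pkd1 and the 4 markers, the 20 most abundant genes, in each class the 12 most abundant and the highest member of each family at 5 TPM, all marker list genes, and the 15 steadiest and 15 most variable genes without predicted, Xist or Y-linked genes. Other genes are named where the text says so, or because they passed the threshold for variable genes or lay next to a threshold. The libraries, lists and classes were chosen with earlier results of these data known. Alternatives were rescaling by TMM factors, CPM, other minimum levels, other added values, medians, leaving out mitochondrially encoded genes, each library or a line. The 8 other libraries of the series were not analysed here. Some named genes are not reported here. The erythroid gene Ahsp was listed as a marker but not matched by symbol.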

Additional observations from a re-analysis of the deposited data

Results flagged for a closer look

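Among 148 genes given values and 14 marker lists, 13 had a library whose distance from its nearest neighbour was beyond Dixon's critical value for 6 libraries, as a share of the whole range on the log2(TPM + 1) scale. Chance alone flags about 1 in 20 sets that were not chosen by their spread. Some of the 148 genes were named for their spread over these same libraries, among them Apoa2, Mt1, Pgls and Cnpy2. The rate of 1 in 20 therefore does not hold for them. Genes were also read together with lists that hold them, so the flags are not independent.

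Cep120-line control 1 was the low library in 5 cases. Pgls, the pentose phosphate enzyme, was at 25.4 TPM there against 180.2 TPM in the next library. The tetraspanin Cd81 was at 242 TPM against 314 TPM, and the proteoglycan Sdc4 at 216 TPM against 288 TPM. Egfl7 was at 32.1 TPM against 55.7 TPM, and the endothelial list that it leads summed to 35.4 TPM against 58.1 TPM.

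Cep120-line control 2 was the high library in 3 cases. Apoa2 was at 173.7 TPM against 7.75 TPM in the next library, and the metallothionein Mt1 at 158.5 TPM against 45.4 TPM. The water channel Aqp2 was at 0.310 TPM there and at 0 in the other 5 libraries, a value close to the level of a few counts. In Cep120-line control 3, Cnpy2, otherwise among the steadiest genes, was at 251 TPM against 243 TPM.

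Pkd1-line control 2 was the high library for Tubb3, at 133.5 TPM against 19.6 TPM, and for the neural list, at 156.7 TPM against 22.5 TPM. In Pkd1-line control 3 the duct factor Pax8 was at 16.6 TPM against 11.996 TPM, and the nephron progenitor factor Six2 at 0.965 TPM against 0.386 TPM.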

How the results depend on the processing

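No test was run, so values were compared with the spread between libraries and counts within 1.5 times. Of 283 alternative values over 35 results, 265 stayed within these limits and 18 did not. All 18 were among the 73 alternatives other than leaving out 1 library. For means and sums, leaving out 1 of 6 libraries cannot shift the value by 1 SD. Those comparisons could not fail and show no robustness. No paired analysis was possible because the results come from no test and the replicate numbers link no libraries of the lines. With 1 library left out, steady genes numbered 1347 to 1621 and variable genes 30 to 39. The spread between libraries is no useful limit for a list that 1 library raises: without Cep120-line control 2 the platelet list went from 171 to 34.5 TPM and the stromal list from 12.4 to 8.01 TPM, and without Pkd1-line control 2 the neural list went from 42.0 to 19.04 TPM. Without mitochondrially encoded genes the 100 most abundant genes took 37.7% of TPM. In CPM, which is not corrected for length, transcription factors summed to 16226 with 340 genes at 10, receptors to 3909 with 94, ligands to 4649 with 45, transporters to 16014 with 180 and adhesion genes to 11399 with 92. Steady genes numbered 2671 in the Cep120-line controls alone, 3613 in the Pkd1-line controls alone (3 libraries span less than 6) and 9319 with no minimum level. Variable genes numbered 12 in the Pkd1-line controls alone, 61 at a minimum of 5 TPM, 199 with no minimum and 17 without the histone, blood and neural list genes, an alternative added after seeing the data. Of the 1172 steady genes 822 stayed steady after TMM rescaling and 685 in CPM, and of the 37 variable genes 36 and 30 stayed variable. Genes higher in the Pkd1 line made up 85.4% of genes with separate lines as deposited, 58.5% after TMM rescaling, 78.3% without mitochondrially encoded genes and 58.6% in CPM. The depth sets a floor of 3 counts, or 0.109 to 0.165 CPM, which limits statements on genes near 0, for counting error only.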

Other observations

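The globin transcripts differed between libraries in kind as well as in amount. Hba-x, Hbb-y and Hbb-bh1 are the embryonic globins of primitive red cells, and Hba-a1, Hba-a2, Hbb-bs and Hbb-bt are the adult globins of definitive red cells. The embryonic genes gave 22.3, 4.12 and 33.5% of the TPM of these 7 genes in Cep120-line controls 1, 2 and 3 and 19.7, 19.0 and 24.3% in Pkd1-line controls 1, 2 and 3. Cep120-line control 2 thus had the lowest embryonic share and the highest adult level, with 13709 TPM of adult and 590 TPM of embryonic globins. In Cep120-line control 3 the embryonic beta globin Hbb-y, at 2186 TPM, was above the adult Hbb-bs, at 925 TPM. In Cep120-line control 2 the order was the other way, with Hbb-y at 512 TPM and Hbb-bs at 4232 TPM. Near-identical adult copies can share reads, so the values of Hbb-bs alone are uncertain.

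Mitochondrially encoded genes summed to between 52687 and 79776 TPM per library, while 86 nuclear genes of the respiratory chain summed to between 40318 and 45638 TPM. Immediate early and heat shock genes, which dissociation can induce, summed to between 76.6 and 133.5 TPM. Wnt11 relative to Ret ran from 0.653 in Pkd1-line control 3 to 1.06 in Cep120-line control 3.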
